A study of Mus musculus with 96 samples.

Results

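The 10 transcripts described here encode enzymes of glycolysis and of lactate formation: Hk2, Gpi1, Pfkl, Pfkp, Aldoa, Tpi1, Gapdh, Pgk1, Pkm and Ldha. They were taken by gene symbol, with no measured value in the rule, and are 10 of the 40202 gene rows in the count tables. Single cells of C10, a mouse lung line labelled as alveolar type II epithelial, were sorted 1 to a library. Control cells (48 libraries) were left untreated. The other 48 came from dishes given RO-3306, marketed to inhibit the mitotic kinase CDK1, at a labelled 10 nM for 36 h. Both groups grew in RPMI with serum and glutamine, and the labels name no passage, culture, clone or genotype. RNA was read with SMART-seq v4 after nanoSPLITS, which divides the lysate of a single cell between RNA and protein measurement, and the proteins were not analysed here.

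Glycolysis splits glucose into pyruvate in the cytosol. Hexokinase traps glucose as a phosphate, phosphofructokinase commits it to the pathway, aldolase cleaves it, and the later enzymes return ATP and NADH. Lactate dehydrogenase then turns pyruvate into lactate and regenerates NAD+, which lets the pathway run without mitochondria. Dividing cells and cells short of oxygen are known for high levels of these transcripts, and HIF1 and MYC are known to bind many of their promoters.

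Reads from Gapdh cannot all be placed on Gapdh alone, so its sequence comes first. The mouse genome carries many processed copies of this mRNA. Of the 1271 windows of 150 bases (the read length) in the Gapdh mRNA, 74.0% occurred letter for letter in transcripts of 46 pseudogenes of the GENCODE M21 set. The stretch printed here, bases 978 to 1127 of the mRNA and inside its coding part (241 to 1242), is the one shared by the most pseudogenes, 26 of them.

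Gapdh mRNA 978 to 1127: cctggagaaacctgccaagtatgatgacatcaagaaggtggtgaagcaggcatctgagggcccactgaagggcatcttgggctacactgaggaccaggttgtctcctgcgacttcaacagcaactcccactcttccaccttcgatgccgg

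A read that fits several places was split among them, so each place received a fraction of 1 count. Only 1 of the 46 pseudogenes was a row of the tables, which leaves the fractions given to the other copies out of the Gapdh row. In Pgk1, 66.1% of windows occurred in 2 pseudogenes, neither of them a row, and in Pkm 2.01% occurred in 1. In the other 7 enzymes no window did. Fractional counts were not limited to these 3 enzymes, and where they came from was not tested. Among kept cells with a count, 97.0% held a fractional count for Gapdh, 85.9% for Pgk1, 84.8% for Pkm and 69.7% for Ldha. Shares for Tpi1, Gpi1 and Aldoa were 56.3%, 54.1% and 43.9%, and those for Pfkp, Pfkl and Hk2 were 35.7%, 26% and 14.8%. The same counting was applied to both groups.

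Promoters are shown for enzymes whose levels differed in contrasting ways between the groups. Gapdh and Aldoa were higher in RO-3306 cells in each of 4 sets of cells described below, while Pgk1 and Ldha were not. Each window is the 250 bases before the annotated start in RefSeq on GRCm38.p6, an older build than that of the counts. Letters run 5′ to 3′ on the strand of the gene. Capitals mark ACGTG or GCGTG on either strand, the core letters that HIF1 is known to bind, including those inside CACGTG, the E-box that MYC and USF factors are known to bind.

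Gapdh, chr6:125165774-125166023, minus strand: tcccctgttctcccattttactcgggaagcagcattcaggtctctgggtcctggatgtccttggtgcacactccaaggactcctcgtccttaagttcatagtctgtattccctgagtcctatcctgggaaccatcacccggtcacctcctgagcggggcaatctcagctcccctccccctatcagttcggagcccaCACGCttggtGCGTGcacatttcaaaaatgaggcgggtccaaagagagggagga

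Aldoa, chr7:126799255-126799504, minus strand: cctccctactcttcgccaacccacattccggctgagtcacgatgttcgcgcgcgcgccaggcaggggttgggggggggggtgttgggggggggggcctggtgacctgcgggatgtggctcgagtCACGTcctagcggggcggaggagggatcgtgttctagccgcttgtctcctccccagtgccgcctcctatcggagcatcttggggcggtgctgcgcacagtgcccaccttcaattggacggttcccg

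Pgk1, chrX:106186850-106187099, plus strand: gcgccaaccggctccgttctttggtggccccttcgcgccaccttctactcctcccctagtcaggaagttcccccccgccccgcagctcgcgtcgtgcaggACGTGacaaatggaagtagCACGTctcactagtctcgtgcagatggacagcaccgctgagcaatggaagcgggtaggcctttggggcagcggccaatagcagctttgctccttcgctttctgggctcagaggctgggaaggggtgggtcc

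Ldha, chr7:46845554-46845803, plus strand: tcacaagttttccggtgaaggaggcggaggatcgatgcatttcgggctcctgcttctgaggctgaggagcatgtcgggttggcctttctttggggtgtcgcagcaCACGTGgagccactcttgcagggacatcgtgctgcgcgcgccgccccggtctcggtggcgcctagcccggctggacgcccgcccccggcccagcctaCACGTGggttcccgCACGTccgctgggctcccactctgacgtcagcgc

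Ldha was the 1 enzyme of 10 with CACGTG, which stood in 6.02% of all 32851 promoter windows of this length. ACGTG occurred for 5 of 10 (Hk2, Aldoa, Pgk1, Pkm and Ldha), against 16.6% of all windows, and GCGTG for 4 of 10 (Pfkl, Pfkp, Gapdh and Ldha), against 28.2%. Enzymes with several annotated starts were counted if any of their windows matched. GGGCGG, the letters that SP1 is known to bind, stood upstream of 8 of 10 enzymes and in 32.7% of windows. CCAAT stood upstream of 5 of 10 and in 33.8%, and TATAAA upstream of 0 of 10 and in 12.4%. Shares by gene symbol, counted as for the enzymes, were 6.86% for CACGTG, 18.5% for ACGTG and 30.9% for GCGTG. They were 35.4% for GGGCGG, 37.5% for CCAAT and 14.3% for TATAAA. The printed windows held 55.6% to 67.6% G and C, against a median of 52.4% over all windows, and the shares were not matched for this. In the printed windows, ACGTG was present in Aldoa as well as in Pgk1 and Ldha, and GCGTG in Gapdh. These promoters were picked by the levels of their enzymes. Gpi1, also higher in all 4 sets, was not printed, and its window held neither of these letter groups. Whether the letters go with the direction of a difference was not tested. A match is a description of letters only.

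A minimum of 50000 counts and 1000 detected genes left 29 control and 37 RO-3306 cells. Totals of kept cells ran from 59979 to 6457215 counts in control and from 295005 to 5321880 in RO-3306, with medians of 5177 and 6951 genes detected. The titles hold letters A to D that the labels do not explain. The 4 lettered sets (10, 8, 6 and 5 control cells, and 10, 10, 11 and 6 RO-3306 cells) were used to see whether a difference kept its sign, and they are not replicates. With no culture named, each group is 1 sample, so no p-value was computed. The 95% intervals given (exact Poisson for sums of counts) cover the counting error of reads only. Reads include PCR copies, so the intervals do not cover the counting error of molecules. Of the 8 alveolar type II markers, 4 were absent from every kept cell (Slc34a2, Sftpa1, Sftpc and Sftpd), and the sum of the list was 0.187 to 23.4 CPM over the control sets and 4.47 to 15.1 over the RO-3306 sets. None of 6 epithelial markers reached 5 CPM, with sums of 0 to 3.36 CPM and 0.0926 to 2.55 CPM. Mesenchymal markers summed to 4995 to 7474 CPM in the control sets and 2303 to 2883 in the RO-3306 sets, with Thy1 at 0. Macrophage markers summed to 19.3 to 94.3 CPM against 341 to 452. Of these 8 markers 3 reached 5 CPM. Cd68 (0.0757 CPM in control and 319.8 in RO-3306) made up most of the RO-3306 sum. Cd14 stood at 26.4 and 45.3 CPM, while Lyz2 was lower in RO-3306 (29.5 and 15.8 CPM), with mixed signs between sets. Csf1r (1.70 and 0 CPM) and Itgam (0.924 and 0.0108 CPM) were also lower, and Adgre1, Mrc1 and Ptprc stood at 0.129 CPM or less. The part of these differences in the enzyme values was not tested.

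Gpi1, Aldoa and Gapdh were higher in RO-3306 cells in all 4 lettered sets, by 1.67-fold, 1.41-fold and 1.41-fold over all kept cells. None of the 10 enzymes was lower in all 4 sets. The other 7 had signs that differed between sets. Among the 9374 genes of at least 5 CPM, where all 10 enzymes belong, 13.1% were higher in all 4 sets and 10.3% were lower. Among the 3702 genes of at least 50 CPM, where 9 of the enzymes belong (all but Hk2), these shares were 17.4% and 15.9%. By size, 0 of 10 enzymes were at least 2-fold higher and 1 (Hk2) was at least 2-fold lower, against 12.2% and 24.2% of genes of at least 5 CPM, and 7.24% and 14.4% of those of at least 50 CPM. Over the 10 enzymes the median log2 ratio (RO-3306 over control) was 0.15, against -0.22 for genes of at least 5 CPM and -0.09 for those of at least 50 CPM. By lettered set A to D the enzyme median was 0.06, -0.03, 0.25 and 0.49. Genes of at least 5 CPM gave -0.08, -0.26, 0.41 and 0.24, above the enzymes in set C. Those of at least 50 CPM gave -0.07, -0.12, 0.12 and 0.13, below the enzymes in each set. Ratios used CPM (counts scaled to a group total of 1000000) with 1 CPM added to each side, which understates the change of low genes. TMM and DESeq2 factors would raise RO-3306 over control by 0.21 and 0.24 (log2), somewhat less for low genes because of the added 1 CPM, which takes Pfkl (0.17 and 0.19) and Ldha (0.01 and 0.04) to the other side of 0.

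Ratios moved with mRNA length. The median log2 ratio of all genes in the length bin of Aldoa, Tpi1, Gapdh and Ldha (mRNAs of 1420 to 1607 nt) was 0.18, that of Pgk1 was 0.07 and that of Pkm was -0.28. The bins of Gpi1, Pfkp, Pfkl and Hk2, from 2884 to 5513 nt, had medians of -0.24, -0.55, -0.55 and -0.78. With the bin median subtracted, the log2 ratio was 1.12 for Pfkp, 0.97 for Gpi1, 0.51 for Pfkl, 0.32 for Aldoa, 0.31 for Gapdh and 0.11 for Tpi1. It was -0.07 for Pgk1, -0.28 for Pkm, -0.38 for Ldha and -0.51 for Hk2, so Pfkl and Pgk1 changed sign. Of the 10, only Gpi1 then stayed higher in all 4 lettered sets, against 11% of the 9115 genes with a known length. The part of length in these ratios beyond this subtraction was not tested. The count of 3 also fell to 2 without control cell B5, where Aldoa in set B went from 0.14 to -0.03 and 13.3% of genes of at least 5 CPM were higher in all 4 sets.

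**Figure D1:**
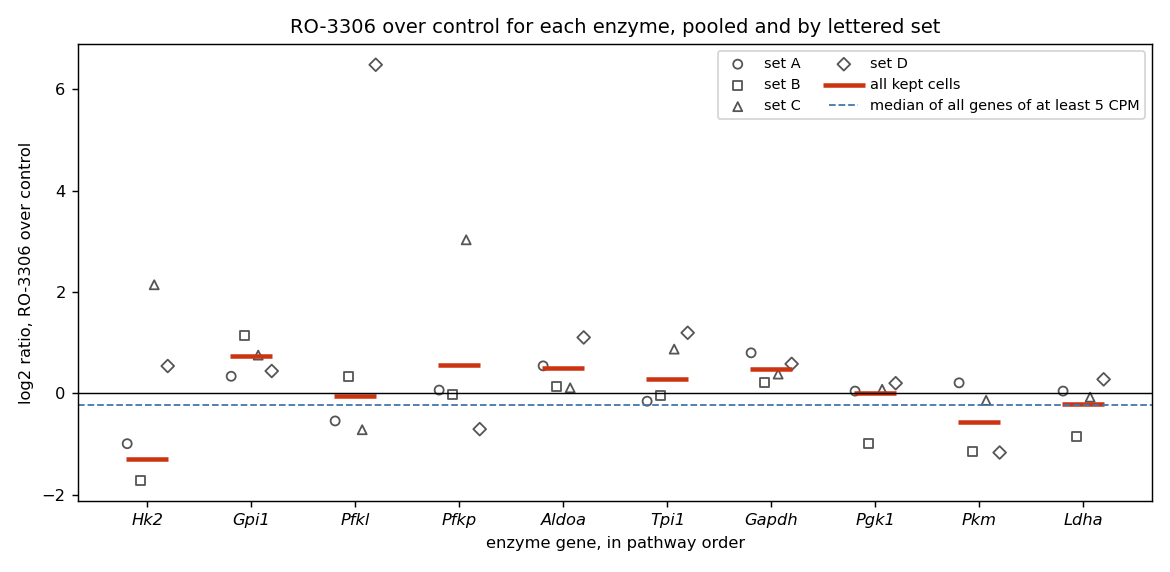
Log2 ratio of RO-3306 over control CPM for each enzyme (vertical axis) in pathway order, with open symbols for lettered sets A to D, a red bar for all kept cells and a dashed line at the median of all genes of at least 5 CPM (-0.22). All 4 symbols of Gpi1, Aldoa and Gapdh lie above 0, and the symbol of Pfkl in set D stands at 6.48 because 2 counts were found in the control cells of that set.

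Hexokinase 2 is the inducible hexokinase that carries out the first step, and its gene (chromosome 6, 82702004 to 82751435, minus strand, GRCm39) was the least abundant of the 10. Control cells ran from 0 to 82.8 CPM with a median of 0, and 10 of 29 had a count. RO-3306 cells ran from 0 to 65.6 CPM with a median of 0, and 17 of 37 had a count. Most cells of either group therefore had none, and the groups overlapped throughout. The group level was 13.6 CPM (12.7 to 14.5) in control and 4.99 CPM (4.54 to 5.46) in RO-3306, a log2 ratio of -1.29. A single cell, control B4, held 59.4% of the control counts, and without it the ratio was -0.25. Set ratios were -0.99 in A, -1.71 in B, 2.14 in C, where control cells had 0 counts and the value rests on the added 1 CPM, and 0.54 in D. More RO-3306 cells thus had a count while the pooled level was lower.

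Glucose-6-phosphate isomerase, which Gpi1 encodes (chromosome 7, 33900752 to 33929761, minus strand), makes fructose-6-phosphate. In control its level per cell ran from 0 to 1057 CPM with a median of 224, and 25 of 29 cells had a count. RO-3306 levels ran from 0 to 929.9 CPM with a median of 339, and 36 of 37 cells had a count. The ranges overlapped, and 29 of 37 RO-3306 cells (78.4%) stood above the control median. Over all kept cells the level was 259.5 CPM (256 to 263) against 433 CPM (429 to 438), a log2 ratio of 0.74. The sets gave 0.34, 1.14, 0.76 and 0.44 in A to D. The pooled ratio of Gpi1 was the highest of the 10 as scaled here, but Pfkp was above it after the length subtraction. Pfkp was also above Gpi1 without set B (0.90 against 0.55), without set D (0.84 against 0.76) and without control cell B4 (0.86 against 0.80).

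Phosphofructokinase, the committed step of the pathway, was represented by its liver (Pfkl) and platelet (Pfkp) subunits. Pfkl (chromosome 10, 77822781 to 77845641, minus strand) ran from 0 to 683 CPM in control, with a median of 27.6 and a count in 18 of 29 cells. After RO-3306 the range was 0 to 1000.1 CPM, with a median of 38.5 and a count in 32 of 37 cells. More RO-3306 cells had a count, but the pooled levels lay close together, at 118 CPM (116 to 121) and 115 CPM (113 to 117), a log2 ratio of -0.04. Its sets disagreed, with -0.54 in A, 0.34 in B, -0.71 in C and 6.48 in D, where 1 of 5 control cells had a count.

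Pfkp (chromosome 13, 6629910 to 6699096, minus strand) ran from 0 to 699 CPM in control, with a median of 0 and a count in 9 of 29 cells. RO-3306 cells ran from 0 to 326 CPM, with a median of 3.78 and a count in 19 of 37 cells. The level over all kept cells was 45.9 CPM (44.3 to 47.5) against 68.6 CPM (66.9 to 70.3), a log2 ratio of 0.57. Single cells weighed on it: RO-3306 cell C5 held 27.3% of that group's counts, and the ratio was 0.20 without it and 0.90 without control cell B12. Set ratios were 0.07, -0.02, 3.03 and -0.70 in A to D, so no direction held across the sets. The gene also shares 28.0% of its span with Pitrm1 and Gm35730, and reads over both are left uncounted by default.

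Aldolase A cleaves fructose-1,6-bisphosphate into a pair of triose phosphates, and every kept cell had a count for Aldoa (chromosome 7, 126394406 to 126400166, minus strand). Control cells ran from 155 to 2651 CPM with a median of 761. RO-3306 cells ran from 115 to 3711 CPM with a median of 1194, and 26 of 37 (70.3%) stood above the control median. The ranges overlapped, with 2 RO-3306 cells above every control cell and 1 below. Pooled levels were 813 CPM (807 to 820) and 1147 CPM (1140 to 1153), a log2 ratio of 0.49, with 0.54, 0.14, 0.11 and 1.10 in sets A to D.

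Triosephosphate isomerase, which interconverts these trioses, is encoded by Tpi1 (chromosome 6, 124787549 to 124791121, minus strand). Its control level ran from 0 to 1453 CPM with a median of 936, and 2 of 29 cells had none. RO-3306 cells ran from 79.6 to 2475 CPM with a median of 1103, and 12 of 37 exceeded the highest control cell. The lower parts of the ranges overlapped, as 21 of 37 RO-3306 cells (56.8%) stood above the control median. Pooled levels were 1032 CPM (1024 to 1040) and 1263 CPM (1256 to 1270), a log2 ratio of 0.29. The sets split into -0.15 and -0.04 in A and B and 0.87 and 1.20 in C and D. With TMM or DESeq2 scaling, or with cells thinned to equal depth, Tpi1 was higher in all 4 sets.

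Glyceraldehyde-3-phosphate dehydrogenase makes the NADH of the pathway and is often used as a loading control. Gapdh (chromosome 6, 125138815 to 125143430, minus strand) had a count in every kept cell. Control cells ran from 293 to 1707 CPM with a median of 1078. RO-3306 cells ran from 208 to 3761 CPM with a median of 1492, and 29 of 37 (78.4%) stood above the control median. The overlap was partial: 9 RO-3306 cells exceeded every control cell and 1, B3, lay below them all. Pooled levels were 1076 CPM (1068 to 1084) and 1512 CPM (1504 to 1520), a log2 ratio of 0.49, and the sets gave 0.80, 0.21, 0.38 and 0.58. Per lettered set, control levels ran from 896 to 1226 CPM and RO-3306 levels from 1358 to 1781. Set levels of Gpi1 ran from 226 to 347 CPM in control and from 348 to 499 in RO-3306. The groups met there: the counting intervals of Gpi1 in control set D (334 to 360) and RO-3306 set A (340 to 357) overlapped. The share of all genes with set levels apart was not computed, so nothing is drawn from these ranges. Fractions of Gapdh reads given to pseudogene copies are missing from both groups.

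Phosphoglycerate kinase 1 makes the first ATP of the pathway. Pgk1 (chromosome X, 105230706 to 105247305, plus strand) ran from 0 to 624 CPM in control with a median of 212. In RO-3306 it ran from 4.69 to 1349 CPM with a median of 192, and 14 of 37 cells (37.8%) stood above the control median. Pooled levels were 243 CPM in both groups (239 to 247 in control, 240.3 to 247 in RO-3306), a log2 ratio of 0.0035. Set ratios of 0.05, 0.08 and 0.20 in A, C and D stood against -0.99 in B. Control cell B4 held 22.8% of the control counts, and without it the ratio was 0.23.

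Pyruvate kinase closes the pathway and makes its second ATP. Pkm (chromosome 9, 59563859 to 59586655, plus strand) yields the M1 and M2 forms by alternative splicing, which counts over the whole gene do not separate. Control cells ran from 91.1 to 2107 CPM with a median of 814. RO-3306 cells ran from 153 to 2623 CPM with a median of 597, and 11 of 37 (29.7%) stood above the control median. The ranges overlapped almost wholly, with 1 RO-3306 cell above every control cell. Pooled levels were 996 CPM (988 to 1004) and 673 CPM (668 to 678), a log2 ratio of -0.57. The sets gave 0.21, -1.15, -0.14 and -1.16, so Pkm was lower in 3 of 4. Control sets varied widely, from 567 CPM in A to 1734 in D, while RO-3306 sets ran from 573 to 773.

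Lactate dehydrogenase A turns pyruvate into lactate. Every kept cell had a count for Ldha (chromosome 7, 46491698 to 46505051, plus strand). Control cells ran from 113 to 1284 CPM with a median of 600.3, and RO-3306 cells from 47.5 to 1321 CPM with a median of 440.3. In RO-3306, 12 of 37 cells (32.4%) stood above the control median, and the ranges overlapped. Pooled levels were 671 CPM (665 to 678) and 585 CPM (580.1 to 589.99), a log2 ratio of -0.20. Set ratios were 0.05, -0.86, -0.07 and 0.28, and without control cell B4 the pooled ratio was -0.05.

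**Figure D2:**
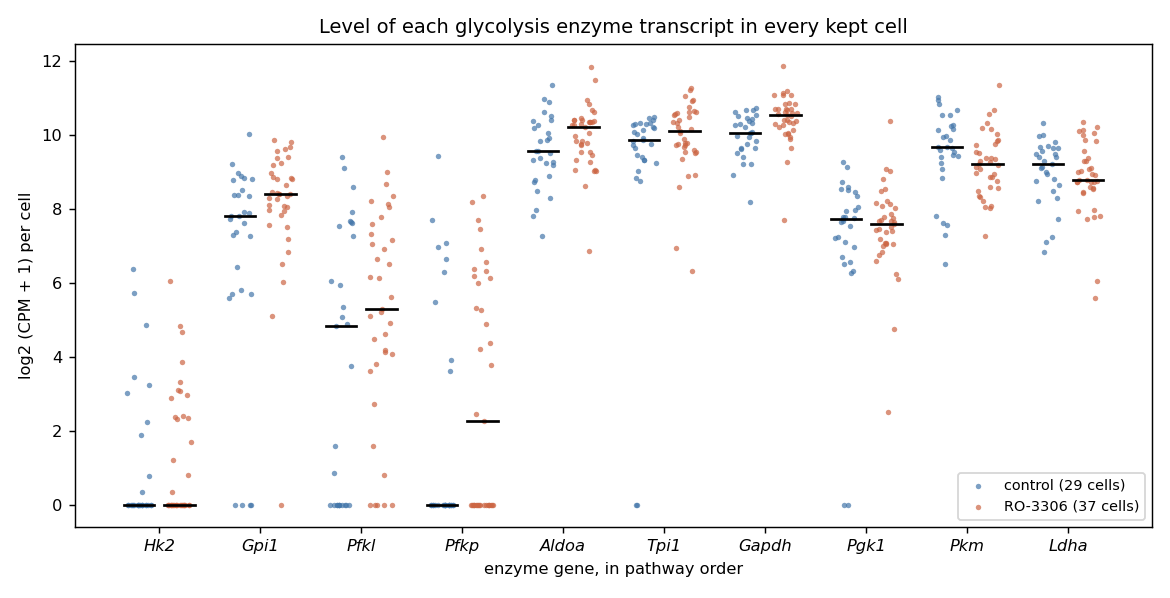
Level of each enzyme transcript as log2 of CPM plus 1 (vertical axis) in every kept cell, 29 control cells in blue and 37 RO-3306 cells in orange, with a black line at each median. Gapdh medians stand at 1078 and 1492 CPM and Pkm medians at 814 and 597 CPM, while most cells of both groups lie at 0 for Hk2.

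Added together, the 10 enzymes took 0.527% of control counts (5268 CPM, 5251 to 5286) and 0.604% of RO-3306 counts (6045 CPM, 6029 to 6061). The log2 ratio of the sums was 0.20, with 0.30, -0.17, 0.30 and 0.39 in sets A to D, so it was not higher in all 4. Per cell, the sum ran from 2718 to 8295 CPM in control with a median of 5052. In RO-3306 it ran from 760 to 16886 CPM with a median of 5636, and 23 of 37 cells (62.2%) stood above the control median. Both ends of the RO-3306 range were single cells. Cell C11, with 2159 genes detected, was the highest RO-3306 cell for 7 of the 10 enzymes, and cell B3, with 56.0% mitochondrial counts, was lowest for Aldoa, Gapdh, Pkm and Ldha. Without C11 the ratio of the sums was 0.18, and without B3 it was 0.20. All 10 enzymes had a count in 3 control cells and 9 RO-3306 cells, with medians of 8 and 9 enzymes per cell.

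Per kilobase of mRNA, the order of levels was nearly the same in both groups. In control it ran Gapdh (757 CPM per kb), Tpi1 (642), Aldoa (525), Ldha (423), Pkm (410), Pgk1 (133), Gpi1 (90.0), Pfkl (31.7), Pfkp (11.1) and Hk2 (2.47). In RO-3306 it ran Gapdh (1065), Tpi1 (786), Aldoa (740), Ldha (368), Pkm (277), Gpi1 (150), Pgk1 (133), Pfkl (30.8), Pfkp (16.5) and Hk2 (0.905). The exchange of Pgk1 and Gpi1 was the 1 change in order, and the Pgk1 row lacks any fraction of reads given to its pseudogene copies, while no window of Gpi1 is shared. Most neighbours overlapped in their quartiles over cells: those of Pkm (248 to 496 CPM per kb) and Ldha (255 to 504) in control nearly coincided, as did those of Tpi1 (479 to 976) and Aldoa (484 to 880.2) in RO-3306. In control the quartiles were apart below Pkm, where the upper quartile of Pgk1 was 180 CPM per kb against a lower quartile of 248 for Pkm. In RO-3306 they were apart below Aldoa (lower quartile 484, against an upper quartile of 421 for Ldha) and below Pgk1 (72.9, against 43.0 for Pfkl). The enzymes of the committed and first steps, Pfkl, Pfkp and Hk2, were thus the 3 lowest in both groups.

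The balance between enzymes within a cell does not depend on the total count of that cell. This ratio was chosen after the values above were seen, so it is a description. In control, the log2 ratio of Gapdh over Pkm ran from -0.71 to 3.12 with a median of 0.30, and 17 of 29 cells stood above 0. In RO-3306 it ran from -1.40 to 2.57 with a median of 1.45, and 35 of 37 cells stood above 0. The ranges overlapped, and the median was higher in RO-3306 in each set: 0.56 against 1.14 in A, -0.06 against 1.27 in B, 0.53 against 1.54 in C and -0.52 against 1.72 in D. In set D no RO-3306 cell reached down to the control cells. Aldoa over Pkm moved from a median of -0.33 to 0.67, and Gapdh over Ldha from 0.93 to 1.57, and both were higher in each set. Gapdh was thus higher against both Pkm and Ldha in RO-3306 cells, and Aldoa against Pkm. Part of the difference against Pkm went with mRNA length: over all kept cells the log2 ratios of Gapdh and Pkm differed by 1.06, and by 0.60 after the length subtraction. Gapdh and Ldha share a length bin, and differed by 0.69 with or without it.

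**Figure D3:**
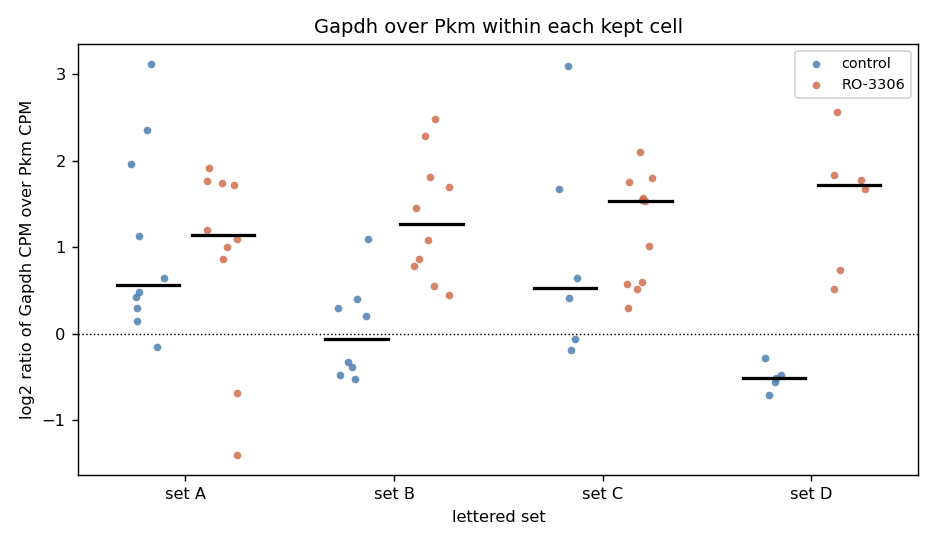
Log2 ratio of Gapdh CPM over Pkm CPM within each kept cell (vertical axis), by lettered set, with control cells in blue, RO-3306 cells in orange and a black line at each median. The RO-3306 median lies above the control median in all 4 sets, by the most in set D (-0.52 against 1.72).

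Across single cells, the abundant enzymes were positively correlated with each other in RO-3306, while in control the median correlation was near 0. Correlations were taken as Spearman rho within a group, after each cell had been thinned to 639000 reads, which kept 25 control and 34 RO-3306 cells. Among Gpi1, Aldoa, Tpi1, Gapdh, Pgk1, Pkm and Ldha, the 7 detected in at least 80% of kept cells in both groups, the median rho of 21 pairs was 0.02 in control, with 13 pairs above 0. In RO-3306 the median was 0.41, from 0.14 to 0.66, and 21 of 21 pairs were above 0. The median over all pairs of 1290 genes taken the same way was 0.01 in control and 0.02 in RO-3306. These genes were not matched to the enzymes in level, and the part of level in the correlations was not tested. Aldoa with Tpi1 was the closest RO-3306 pair (0.66), followed by Pgk1 with Ldha (0.60) and Tpi1 with Ldha (0.59). In control the closest of these pairs was Gapdh with Pkm (0.57), while Tpi1 with Pkm stood at -0.21. Over all 45 pairs of the 10 enzymes the medians were 0.03 and 0.22, with Hk2 and Ldha at 0.64 in control. Cells in these correlations share a library type and a total used for CPM, and the difference between the groups was not tested. Without thinning the RO-3306 median of the 21 pairs was 0.44, with each lettered set centred it was 0.41, and without C11, the cell with the highest levels, it was 0.36.

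**Figure D4:**
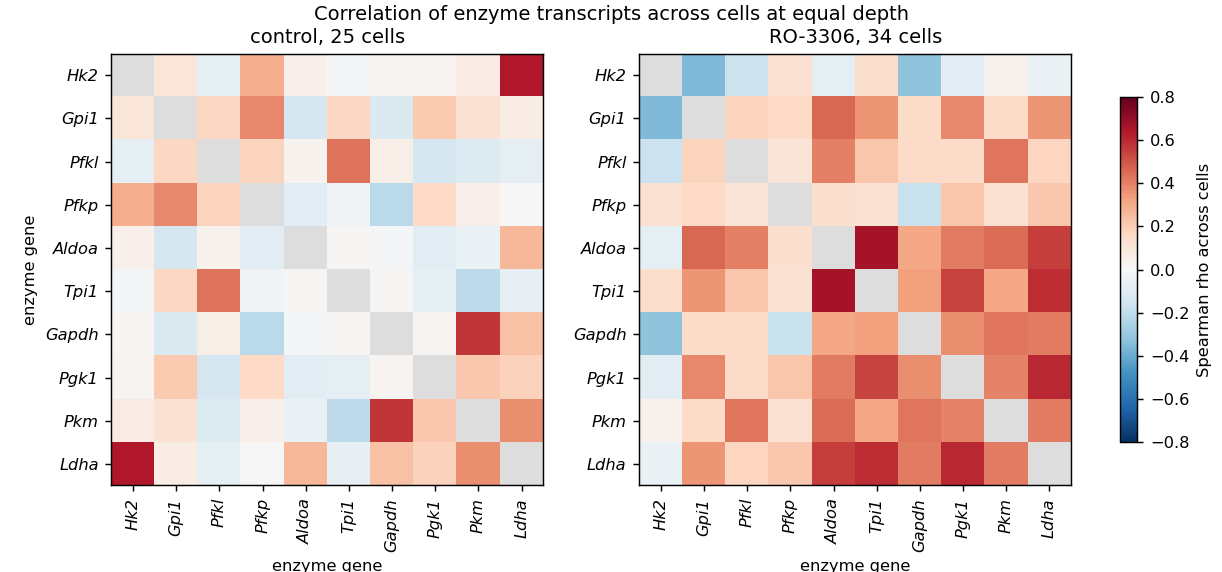
Spearman rho between enzyme transcripts across 25 control cells (left) and 34 RO-3306 cells (right) at equal depth, on a colour scale from -0.8 to 0.8, with both axes in pathway order. The block from Aldoa to Ldha is red throughout in RO-3306, where all 21 pairs of the 7 widely detected enzymes are above 0, and mixed in control, where 13 of 21 are.

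The transcript whose level most resembled the summed level of the 10 was Eno1, which encodes enolase, a glycolysis enzyme outside the 10. Its rho with the sum was 0.69 in control and 0.72 in RO-3306, the highest in each group among 1283 other genes. The next 4 by mean rho were Gm2423 (0.62 and 0.27), Gsn (0.38 and 0.48), Shmt2 (0.39 and 0.46) and P4hb (0.44 and 0.40). Likeness was measured over 25 and 34 cells. Within the 10, the closest by mean rho to the sum they are part of were Pkm (0.72 and 0.67) and Ldha (0.50 and 0.71). In RO-3306 alone Aldoa (0.81) and Tpi1 (0.78) were closer, with 0.35 and 0.18 in control.

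Other isozymes and the steps with no member among the 10 gave a mixed picture. Of 19 genes listed, 7 reached 5 CPM. Of these 7, 1 was higher and 1 lower in all 4 sets, against 13.1% and 10.3% of all genes of at least 5 CPM. Their median log2 ratio was -0.26. Eno3, the muscle enolase, went from 136 CPM in control to 244 in RO-3306, a log2 ratio of 0.84 and higher in all 4 sets. Its span overlaps that of Pfn1, an abundant gene. Pfkm, the muscle phosphofructokinase, went from 18.1 to 7.11 CPM, a ratio of -1.23 and lower in all 4 sets. It had a count in 8 of 29 control and 11 of 37 RO-3306 cells, and control cell A1 held 32.9% of the control counts. The main enolase Eno1 went from 334 to 279 CPM (-0.26) and Pgam1, which moves the phosphate before enolase acts, from 534 to 478 CPM (-0.16), both with mixed signs. Hk1, the constitutive hexokinase, stood at 31.2 and 13.7 CPM (-1.13) and Eno2, the neuronal enolase, at 3.21 and 14.0 CPM (1.83), again with mixed signs. Eno2 had a count in 2 control and 7 RO-3306 cells, and control cell A9 held 83.3% of its control counts.

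For transport of glucose and lactate, 4 of 8 genes reached 5 CPM. Of these 4, 1 was higher and 0 lower in all 4 sets, against 13.1% and 10.3% of all genes of at least 5 CPM. That gene was Bsg, which encodes basigin, the chaperone that carries lactate transporters to the membrane. The Bsg level was 779 CPM in control cells against 1751 CPM (log2 ratio 1.17), with 1.28, 1.15, 0.91 and 1.41 in sets A to D. Per cell its median was 701 CPM in control and 1698 in RO-3306, and the ranges (0 to 1288 and 48.5 to 3730) overlapped. Slc16a1, the lactate transporter that basigin carries, went from 143 to 93.3 CPM (-0.61), with a higher value in set C only. Slc2a4 and Slc16a7 had no count.

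Of the enzymes that set fructose-2,6-bisphosphate, the activator of phosphofructokinase, 4 of 5 reached 5 CPM and none kept its sign in all 4 sets. Their median ratio was -0.62, and Pfkfb1 (8.37 and 3.58 CPM) had all its control counts in 1 cell. Among genes for the entry of pyruvate into mitochondria, 11 of 14 reached 5 CPM, and their median was -0.09. Of these 11, none was higher and 1 was lower in all 4 sets, against 13.1% and 10.3% of all genes of at least 5 CPM. The lower one was Pdha1, a subunit of pyruvate dehydrogenase, at 99.2 and 54.5 CPM (-0.85), named after its values were seen. Mpc2, a subunit of the mitochondrial pyruvate carrier, stood at 150 and 183 CPM (0.28) and Pdhb at 137 and 128 CPM (-0.09), both with mixed signs. Pdp2 stood at 10.2 and 0.0108 CPM (-3.47), with no difference in set D, and had 99.3% of its control counts in 1 cell, B6.

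Gluconeogenesis and glycogen genes held changes in both directions. Of 14 listed, 8 reached 5 CPM, with a median of -0.82. Of these 8, 1 was higher and 1 lower in all 4 sets, against 13.1% and 10.3% of all genes of at least 5 CPM. Gbe1, the glycogen branching enzyme, stood at 9.54 and 81.5 CPM (log2 ratio 2.97), higher in all 4 sets, and was detected in 11 of 29 and 24 of 37 cells. Pck2, the mitochondrial enzyme that makes phosphoenolpyruvate, stood at 128 and 43.0 CPM (-1.55), lower in all 4 sets. Gys1, glycogen synthase, stood at 38.1 and 11.7 CPM (-1.62), Pygb, a glycogen phosphorylase, at 16.0 and 3.82 CPM (-1.82) and Ugp2 at 109.6 and 99.4 CPM (-0.14), all with mixed signs. Control cell B6 held 49.6% of the Gys1 control counts, and the mean over cells gave a log2 ratio of -0.35. For Pygb, RO-3306 cell B5 held 89.6% of that group's counts, and the mean over cells gave -1.42.

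Several targets of the hypoxia response outside glycolysis were higher in RO-3306 cells. Of 15 listed, 10 reached 5 CPM, 5 were higher and 0 lower in all 4 sets, against 13.1% and 10.3% of all genes of at least 5 CPM, and the median log2 ratio was 0.39. Over all kept cells 6 of the 10 were above 0 and 4 below. Those 5 were Bnip3 (59.4 to 179 CPM, 1.57), its relative Bnip3l (112 to 169 CPM, 0.58), Ndrg1 (84.7 to 145 CPM, 0.77), Higd1a (137 to 241 CPM, 0.81) and Mxi1 (14.2 to 63.4 CPM, 2.09). Bnip3 and Bnip3l are known to direct the removal of mitochondria. Counts of Bnip3 were found in 9 of 29 control cells against 34 of 37 after RO-3306. Egln1, the oxygen-sensing hydroxylase, stood at 59.9 and 27.4 CPM (-1.10) with mixed signs. Vegfa, the vessel growth factor (-0.54), P4ha2 (-0.51) and P4ha1 (-0.08), subunits of a collagen hydroxylase, also had mixed signs and are named after their values were seen. Car9 and Adm had no count. Among transcription factors known to bind glycolysis genes, 8 of 10 reached 5 CPM, none kept its sign in all 4 sets, and the median was -0.44. Myc stood at 146 and 107 CPM (-0.45), Usf1 at 97.9 and 120 CPM (0.29) and Arnt, the partner of HIF1, at 18.3 and 6.25 CPM (-1.41).

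**Figure D5:**
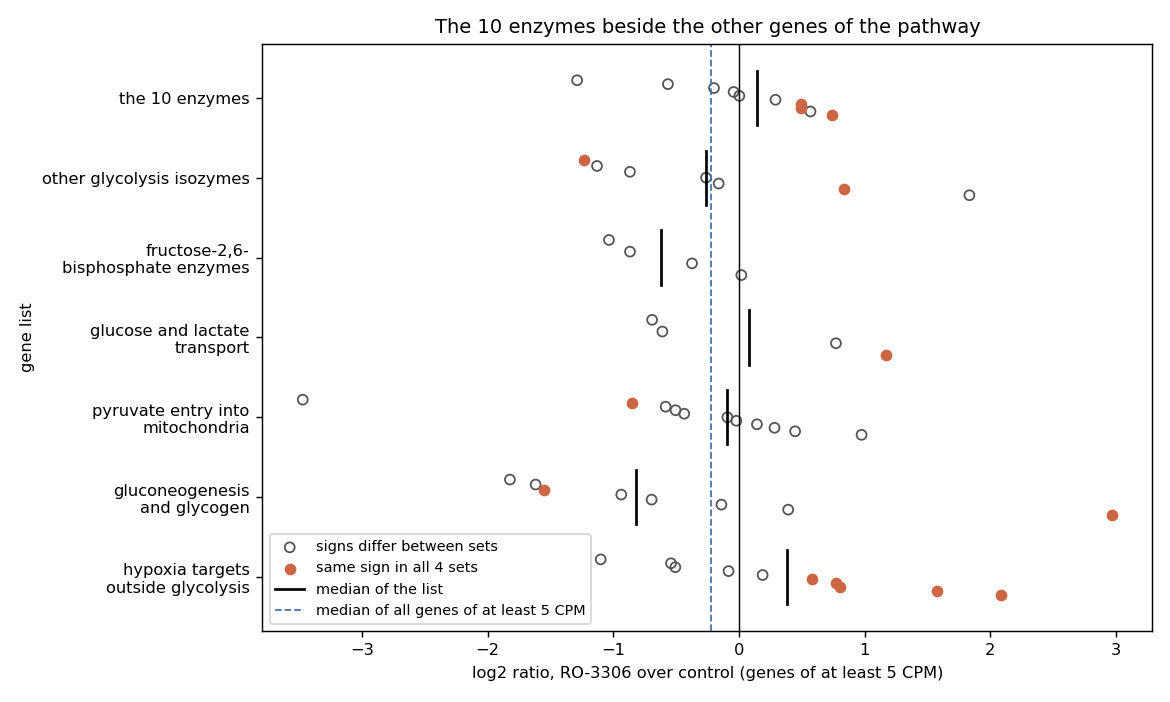
Log2 ratio of RO-3306 over control CPM (horizontal axis) for genes of at least 5 CPM in each list (vertical axis), filled where the sign was the same in all 4 lettered sets, with a black bar at the median of each list and a dashed line at the median of all genes (-0.22). The 10 enzymes have 3 filled points, all above 0, and the hypoxia targets outside glycolysis have 5, also all above 0.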

How the data were processed

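The deposited files hold expected counts per gene, 1 file for each of 96 cells. Per the file headers, the authors counted with featureCounts 2.0.3 over whole gene spans of the GRCm39 RefSeq annotation, introns included, and split multi-mapped reads into equal fractions, with no strand option. The submitters' processing notes also name FastQC and STAR. Without molecular identifiers, PCR copies are part of each count.

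Counts were summed over kept cells of a group and scaled to CPM. Counts were rounded before intervals, thinning and scaling factors. A count was called fractional when over 1e-06 from a whole number. Set signs and a 2-fold size stand in for a test. mRNA lengths and pseudogenes came from GENCODE M21 by symbol, with 20 length bins, and promoters from RefSeq on GRCm38.p6, where all 10 enzymes matched. TMM factors (edgeR 4.0.16) and DESeq2 1.42.0 size factors, run in R 4.3.3, were alternatives, as were other filters, pseudocounts, depths and left-out cells. Python 3.11.15, numpy 2.4.6, pandas 2.3.3, scipy 1.17.1 and matplotlib 3.10.9 did the rest. The ratio step was tested on simulated data.

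The 10 enzymes and all lists were chosen with earlier results of these data known. Of the other lists, genes of at least 100 CPM on average were named, and of the rest those past 2-fold with at least 5 CPM. Genes like the enzymes were the 5 with the highest mean rho with their summed CPM, among genes of at least 50 CPM with a count in 80% of cells of each group.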

Additional observations from a re-analysis of the deposited data

Results flagged for a closer look

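The libraries below the minimum of counts and genes also held reads of the enzymes. In the 11 RO-3306 libraries left out, the 10 enzymes summed to 1577 CPM (1506 to 1651), and 10 of the 11 had a count for at least 1 of them. In the 19 control libraries left out, the sum was 551 CPM (475 to 636), and 8 of the 19 had a count. This signal stands outside the comparisons above and is higher in the RO-3306 libraries than in the control libraries. Both levels were below those of kept cells (5268 CPM in control and 6045 in RO-3306).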

How the results depend on the processing

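The log2 ratio of the summed enzymes stayed above 0 in every alternative run, and the median over the 10 in all but 1, while the size of both moved. With TMM factors the sum gave 0.41 and the median 0.36, and with DESeq2 size factors 0.43 and 0.38. These factors raised log2 ratios by 0.21 and 0.24, less for low genes. The sum was 0.23 as a mean over cells, 0.29 from thinned cells, 0.19 with no filter on cells and 0.22 without mitochondrial counts in the total, where the median was 0.17. With the length-bin median taken off, the median was 0.21. Without sets A, B, C and D the sum was 0.094, 0.41, 0.21 and 0.097, and the median 0.22, 0.41, 0.062 and -0.031. Leaving out each cell in turn gave sums of 0.13 (RO-3306 D8) to 0.29 (control B4) and medians of 0.074 to 0.29 (the same cells). Chosen after seeing the data, leaving out C11 gave 0.18 and 0.12, and leaving out control B5 gave a median of 0.17. Leaving out each enzyme gave sums of 0.11 to 0.33 and medians of 0.0035 to 0.29. The count of enzymes past 2-fold (Hk2 alone) became 0 as a mean over cells, from thinned cells, without set B and without control cell B4. The count higher in all 4 sets was 1 (Gpi1) after the length subtraction and 4 (with Tpi1) under TMM, DESeq2 and thinning, where 17.3%, 17.7% and 13.2% of all genes of at least 5 CPM were higher in all 4. Gpi1, Aldoa, Gapdh and Tpi1 stayed above 0 over all kept cells in every alternative, and Hk2 and Pkm below 0. Pfkl, Pfkp, Pgk1 and Ldha took both signs. Adding the 1 pseudogene row moved no value. No paired analysis was possible because the numbers in the titles name cells, not cultures. The cause of each move was not tested. Most control cells had no count for Hk2 and Pfkp, so their values rest on few cells.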

Other observations

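The spread of the abundant enzymes across cells was set beside that of genes of like level. At equal depth, the coefficient of variation of Gapdh was 0.316 in control and 0.339 in RO-3306, and that of Tpi1 was 0.379 and 0.414. The 319 genes of 500 to 2000 CPM had medians of 0.487 and 0.395. Gapdh and Tpi1 were below the lower quartile of these genes in control (0.382), while in RO-3306 Gapdh was above the lower quartile (0.322) and Tpi1 above the median. Pkm (0.533 and 0.652) and Aldoa (0.561 and 0.554) were above the median in both groups. Ldha (0.487 and 0.522) stood at the median in control. In RO-3306 Pkm, Aldoa and Ldha were above the upper quartile (0.507), and in control they were below it (0.644).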
